A study of Mus musculus with 24 samples.

Results

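The genes examined here encode the scaffold proteins of the postsynaptic density: Shank1, Shank2 and Shank3, Dlgap1 to Dlgap4, and Dlg2, Dlg3 and Dlg4. All 10 were taken by name from both count tables, which listed 23845 genes for RNA and 20436 genes for ribosome-protected fragments (RPFs, or footprints), with 20409 in both. The 10 genes passed the filter on low counts in both assays.

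RNA-seq and ribosome profiling had been carried out on the same lysates of hippocampal slices from male mice of 28 to 42 days. Littermates were wild type (WT) or carried a germline Tsc2+/- deletion, made by crossing floxed Tsc2 with CMV-Cre, on C57BL/6J, so that the deletion was not limited to neurons. Slices received vehicle (artificial cerebrospinal fluid) or 100 µM DHPG, which activates the group I class of metabotropic glutamate receptors, for 5 min, and all were lysed with cycloheximide at 100 µg/ml. Each of the 4 groups (WT vehicle, WT DHPG, Tsc2+/- vehicle and Tsc2+/- DHPG) had 3 RNA and 3 RPF libraries, each from slices of several mice pooled, with CA3 removed.

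The postsynaptic density is the protein lattice under excitatory synapses. Dlg proteins (Dlg4 is PSD-95, Dlg2 is PSD-93 and Dlg3 is SAP102) hold glutamate receptors and adhesion molecules at the membrane through PDZ domains. Dlgap proteins (SAPAPs, or GKAPs) bind the guanylate kinase domain of Dlg proteins on one side and the PDZ domain of Shank proteins on the other, and Shank proteins link this stack to Homer, group I metabotropic glutamate receptors and actin. Several of these mRNAs are carried into dendrites, and variants in the Shank genes are known from autism.

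The libraries held 14801679 to 24067838 counts for RNA and 5296006 to 13613673 for RPFs, and the 10 genes took 0.605% to 0.707% of RNA counts but 0.197% to 0.218% of RPF counts. A member had between 1438 and 38050 counts in an RNA library and between 206 and 5576 in an RPF library. Tsc2 RNA lay between 128.0 and 136.6 CPM (counts scaled to the TMM-adjusted library size) in the 6 Tsc2+/- libraries and between 185.9 and 214.3 in the 6 WT libraries, and it was called lower in both treatments (adjusted p = 2.03e-07 in vehicle and 6.41e-10 in DHPG, edgeR). Markers of neurons and CA1 were detected in every library. Marker sums are CPM of the total counts of a library, without the TMM adjustment. Summed RNA of 5 dentate gyrus markers was lower in Tsc2+/- DHPG (22.09 to 28.4 CPM) than in the other groups (29.99 to 54.18 CPM). In the same way, summed astrocyte markers reached lower in WT vehicle (5494 to 7165 CPM, against 6508 to 7354 elsewhere), and blood markers were at 2.596 to 17.64 CPM in Tsc2+/- against 16.27 to 34.73 CPM in WT. The part of these in the comparisons was not tested. In bulk slices, fewer cells of a type and less RNA per cell cannot be told apart.

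The genes lie on the plus strand of several chromosomes. Shank1 lies at chr7:44308916-44360094, Shank2 at chr7:143978077-144426043 and Shank3 at chr15:89493013-89560261. Dlgap1 lies at chr17:69969073-70821413, Dlgap2 at chr8:14095776-14853426, Dlgap3 at chr4:127168305-127237022 and Dlgap4 at chr2:156613633-156764363. Dlg2 lies at chr7:90476188-92449246, Dlg3 at chrX:100767411-100818410 and Dlg4 at chr11:70017203-70045535. Their coding sequences differed in base composition, which is shown because footprints per RNA were lower in the members richer in GC. Coding GC content was 63.6% in Shank1, 64.6% in Shank3, 64.8% in Dlgap3 and 60.6% in Dlgap4, against 46.8% in Dlg2 and 53.7% in Dlg3. Between these lay Shank2 (59.5%), Dlgap1 (57.7%), Dlg4 (56.7%) and Dlgap2 (56.6%). The median over all genes was 53.1%. To show this, a stretch of 90 bases inside 1 coding exon was read for the lowest and highest members in footprints per RNA and for Dlg4, taking the stretch whose GC content was nearest to that of the whole coding sequence. Sequences are from the RefSeq genome GRCm38.p6, 5′ to 3′, and capitals mark G and C.
Shank1 (chr7:44327093-44327182, + strand, coding exon 11): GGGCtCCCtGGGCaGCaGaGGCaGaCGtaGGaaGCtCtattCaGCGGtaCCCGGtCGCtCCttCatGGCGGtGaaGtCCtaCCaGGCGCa
Dlgap3 (chr4:127194763-127194852, + strand, coding exon 1): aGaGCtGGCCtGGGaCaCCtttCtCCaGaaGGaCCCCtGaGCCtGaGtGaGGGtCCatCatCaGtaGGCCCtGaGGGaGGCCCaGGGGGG
Dlg4 (chr11:70031089-70031178, + strand, coding exon 8): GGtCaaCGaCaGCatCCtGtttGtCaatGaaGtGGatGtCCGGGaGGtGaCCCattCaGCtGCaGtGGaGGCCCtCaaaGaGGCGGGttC
Dlg3 (chrX:100772087-100772176, + strand, coding exon 4): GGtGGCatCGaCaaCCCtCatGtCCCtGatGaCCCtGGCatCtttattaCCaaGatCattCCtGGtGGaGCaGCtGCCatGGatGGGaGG
Dlg2 (chr7:91449754-91449843, + strand, coding exon 2): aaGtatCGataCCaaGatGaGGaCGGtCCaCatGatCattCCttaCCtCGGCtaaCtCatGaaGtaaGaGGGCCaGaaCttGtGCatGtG
These stretches hold 63.3% G and C in Shank1, 64.4% in Dlgap3, 56.7% in Dlg4, 54.4% in Dlg3 and 46.7% in Dlg2.

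All members had long coding sequences, from 2295 bases in Dlg4 to 6504 in Shank1, where the median over all genes was 1467 bases. Levels below are per kb of the longest-coding curated RefSeq transcript for RNA, and per kb of its coding sequence without 60 bases for RPFs, since the first and last 30 had been left out of the footprint counts. The choice of transcript bears on levels but not on changes between groups. Among curated transcripts of a gene it moved log2 footprints per RNA most for Dlgap4 (-0.84 to 0.29) and Dlg2 (1.21 to 2.29), and for Shank1 and Shank3 only 1 curated transcript was listed.

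Dlg4 had the most RNA of the members at 477 ± 15.6 CPM per kb (SD, n = 3, WT vehicle), above 99.6% of 12533 genes with a length in both assays. Shank1 followed at 187 ± 29.1 and Dlgap1 at 153 ± 6.30 CPM per kb, and these neighbours overlapped. Dlgap3 was at 125 ± 8.46, Dlgap4 at 113 ± 4.32, Dlg2 at 66.3 ± 3.90 and Shank3 at 49.4 ± 6.29 CPM per kb. The lowest were Dlg3 at 41.1 ± 1.23, Shank2 at 26.9 ± 1.41 and Dlgap2 at 21.4 ± 0.772 CPM per kb. Among neighbours in this order, the libraries of Shank1 and Dlgap1 overlapped, as did those of Dlgap3 and Dlgap4.

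The order of footprints was another. Dlg4 again led with 186 ± 16.1 RPF CPM per kb of coding sequence (n = 3), but Dlg2 came next with 153 ± 19.0, overlapping Dlgap1 at 143 ± 6.11, and Dlg3 followed with 82.8 ± 6.68. Shank1, second in RNA, was eighth in footprints with 26.5 ± 6.65 CPM per kb, and its libraries overlapped those of Dlgap2 (29.95 ± 1.73) and Dlgap3 (21.1 ± 4.65). Shank3 had the fewest with 12.0 ± 1.92.

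Footprints per RNA (translational efficiency, here the log2 ratio of RPF CPM per kb to RNA CPM per kb) differed widely between members. In WT vehicle Dlg2 had the highest ratio at 1.202 ± 0.27 (SD, n = 3) and Dlg3 followed at 1.01 ± 0.16. Both lay near the median of all genes, 1.15. Dlgap2 (0.49 ± 0.12), Shank2 (0.18 ± 0.21), Dlgap1 (-0.10 ± 0.03) and Dlgap4 (-0.85 ± 0.22) came next, and Dlg4 was at -1.36 ± 0.12. Shank3 (-2.04 ± 0.24), Dlgap3 (-2.59 ± 0.28) and Shank1 (-2.84 ± 0.29) were lowest, below all but 0.702%, 0.191% and 0.104% of genes. In each of the 12 lysates these 3 genes had a lower ratio than the other members: over all lysates Shank1 ranged from -3.22 to -2.56, Dlgap3 from -3.30 to -2.26 and Shank3 from -2.47 to -1.89, whereas the next lowest, Dlg4, ranged from -1.57 to -1.27. So the families did not sort together: Shank2 stood apart from Shank1 and Shank3, and Dlgap3 from the other Dlgap genes.

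**Figure D1:**
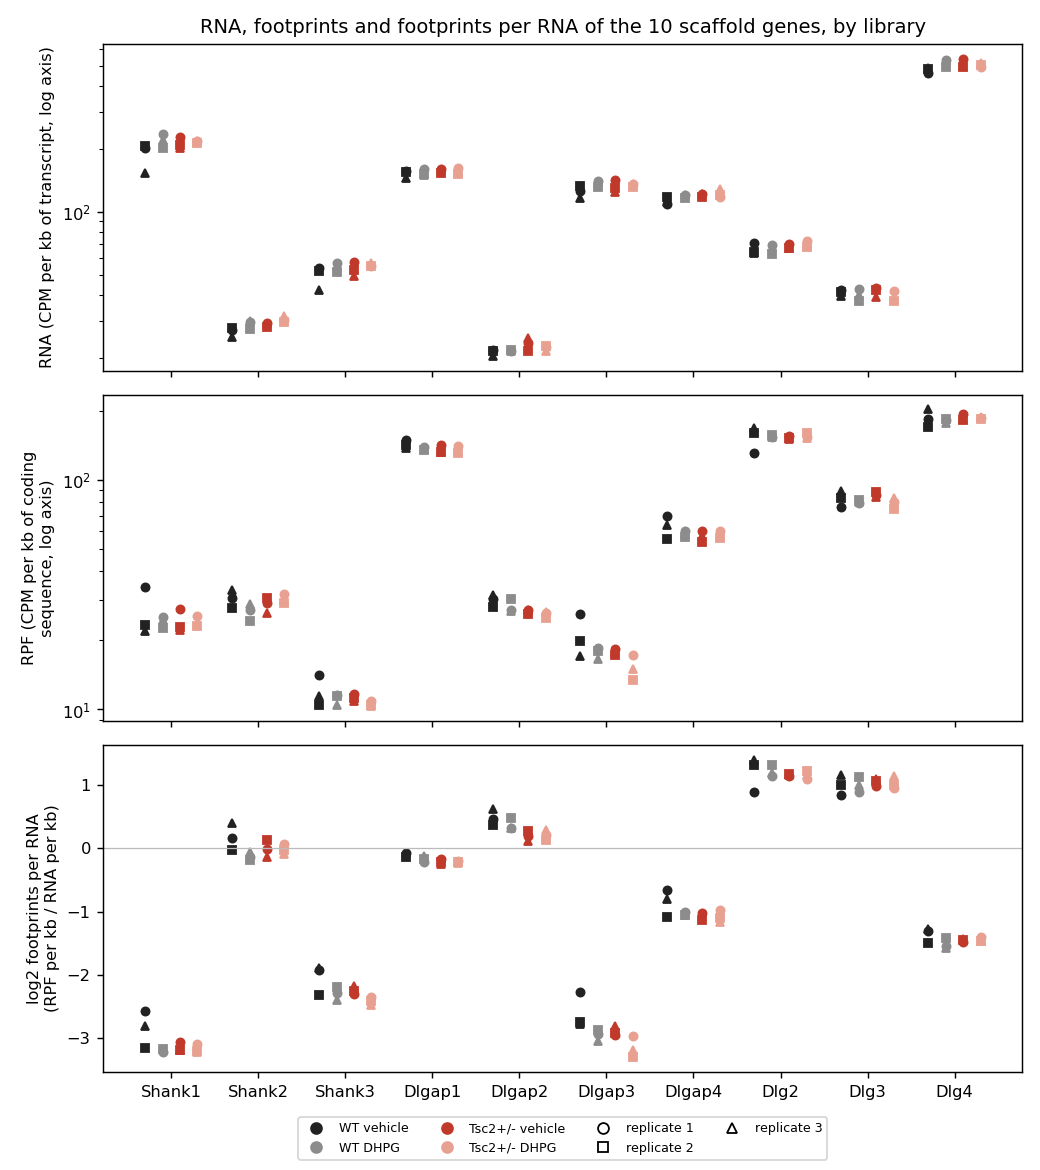
RNA (CPM per kb of transcript, log axis), RPFs (CPM per kb of coding sequence, log axis) and log2 footprints per RNA of the 10 genes, 1 point per library (RNA, RPF) or lysate (ratio), coloured by group with the replicate number as symbol. Dlg4 is highest in RNA and RPFs, Shank1, Dlgap3 and Shank3 are lowest in footprints per RNA in all groups, and WT vehicle replicates 1 and 3 sit above the other libraries in the ratio for several genes.

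Across the 10 members the ratio was lower where coding GC was higher (Pearson r = -0.854, Spearman rho = -0.879, n = 10 genes, WT vehicle), and over 12533 genes the same relation was weaker (r = -0.431, rho = -0.456). These are descriptions, since all points share the same libraries and genes are not replicates. Without scaling by length, r was -0.793 among the members. Members of like GC could still differ: Dlg4 and Dlgap2, at 56.7% and 56.6%, had ratios of -1.36 and 0.49. Base composition did not place all members equally: among genes within 2 percentage points of its own coding GC, Shank1 was at percentile 0.769, Dlgap3 at 1.87, Dlg4 at 2.74 and Shank3 at 3.31, whereas Dlg3, Shank2, Dlgap2 and Dlg2 were at 45.1, 37.9, 35.8 and 31.9. Dlgap1 was at 21.9 and Dlgap4 at 13.7. Over all genes the ratio was also lower for longer coding sequences (r = -0.359). Among genes alike in GC and also in coding length (within 0.5 log2), Shank1 was at percentile 0, Dlg4 at 3.7, Shank3 at 6.25 and Dlgap3 at 7.59. Only 27 such genes were found for Shank1 and 15 for Shank3. Dlgap4 was at 21.6, Dlgap1 at 34.1, Dlg2 at 41.2, Dlgap2 at 55.9, Dlg3 at 57.2 and Shank2 at 67.4. How far RNA reads over untranslated parts, other isoforms or nuclear RNA enter these ratios was not tested.

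**Figure D2:**
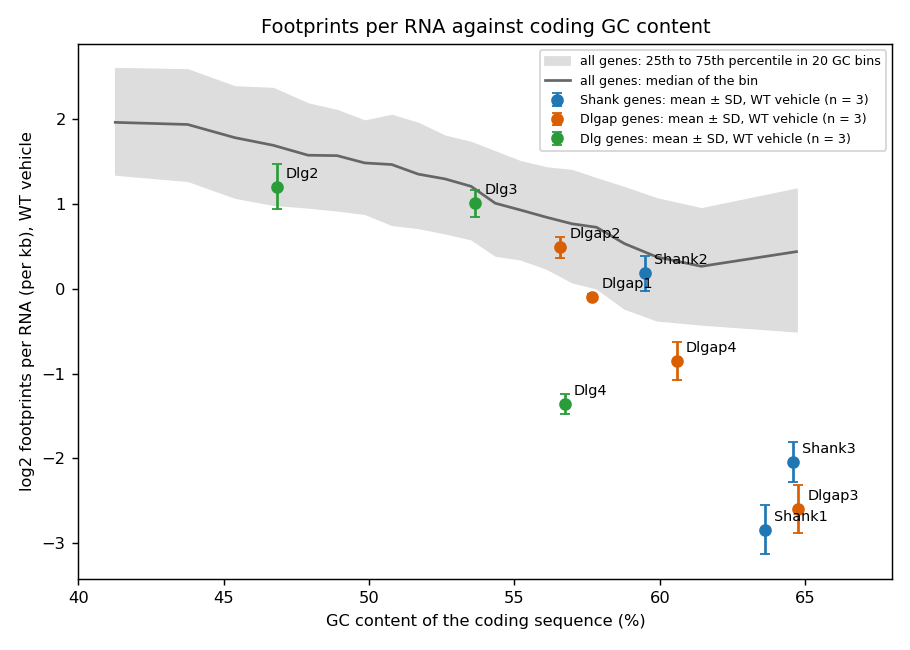
Log2 footprints per RNA in WT vehicle against the GC content of the coding sequence, with the 10 genes as mean ± SD (n = 3 lysates), and all genes as the median (line) and 25th to 75th percentile (band) of 20 GC bins. Shank1, Shank3, Dlgap3, Dlgap4, Dlg4 and Dlgap1 lie below the band, and the other 4 genes lie within it.

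Between groups the members differed little. With edgeR's quasi-likelihood test over all genes, 0 of 10 were called at an adjusted p under 0.1 in any of the 7 comparisons of RNA, RPFs or footprints per RNA. DESeq2 called 1, Dlgap3, in footprints per RNA, and none in RNA or RPFs. It did so for DHPG in WT (adjusted p = 0.0569, range over 24 alternatives 0.0267 to 0.953), where it called 0.79% of all genes, and for DHPG averaged over genotypes (adjusted p = 0.0246, range 0.0133 to 0.758), where it called 0.508%. Few genes of any kind were called by edgeR. For RNA the shares of 14516 genes were 0.0896% and 0.0482% for genotype (in vehicle and in DHPG), 0% for DHPG in WT, DHPG in Tsc2+/- and the interaction, 0.227% for genotype averaged over treatments and 0.0207% for DHPG averaged over genotypes. For RPFs the shares of 12877 genes were 0.0233%, 0.0155%, 0.0311%, 0%, 0%, 0.0621% and 0.0311% in the same order. For footprints per RNA, 0.0469% of 12785 genes were called for DHPG in WT and again for DHPG averaged over genotypes, and 0% in the other comparisons.

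The first question was how the Tsc2 genotype bears on the scaffold in vehicle. RNA of all 10 members was higher in Tsc2+/- by 0.021 to 0.190 on the log2 scale, with a median of 0.095 against -0.002 over all genes. That median was 0.037 without WT vehicle replicate 3 and 0.139 without WT vehicle replicate 2. At an unadjusted p under 0.05 there were 3 of 10, beside 4.90% of all genes: Shank1 (0.19 ± 0.08 SE, adjusted p = 0.983, edgeR), Dlgap2 (0.13 ± 0.06) and Dlg4 (0.10 ± 0.05). Footprints had a median of -0.084 against -0.002 over all genes, which ran from -0.170 without replicate 2 to 0.001 once the dependence of libraries on GC content and gene length was taken out. Among these, 2 passed the unadjusted threshold, beside 6.55% of genes: Dlgap3 (-0.24 ± 0.10) and Dlgap4 (-0.14 ± 0.06). Footprints per RNA had a median of -0.181 against 0.006, with 9 of 10 below 0, and 3 passed the unadjusted threshold beside 5.67% of genes: Dlgap3 (-0.31 ± 0.10), Dlgap2 (-0.28 ± 0.10) and Dlgap4 (-0.22 ± 0.08), all of the Dlgap family. Dlg2 and Dlg3 were near 0 in the 3 measures, between -0.04 and 0.06.

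In DHPG the genotypes were closer. The median of the members was 0.032 for RNA, -0.011 for RPFs and -0.045 for footprints per RNA. For RNA 0 of 10 passed an unadjusted p under 0.05 (4.64% of genes), and for footprints per RNA 0 of 10 (3.03%). For RPFs 2 did (4.13% of genes): Shank2, higher in Tsc2+/- (0.18 ± 0.08), and Dlgap3, lower (-0.21 ± 0.10).

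The second question was what DHPG did within 5 min in WT slices, a comparison that has the WT vehicle libraries in common with the one on genotype in vehicle. RNA of 9 of 10 members was higher with DHPG, with a median of 0.097 against -0.002 over all genes (0.041 with replicate 3 left out of all groups, 0.050 with it left out of WT vehicle alone), and 5 passed the unadjusted threshold beside 6.45% of genes. These were Shank1 (0.235 ± 0.09), Shank3 (0.145 ± 0.06), Dlgap3 (0.13 ± 0.05), Shank2 (0.12 ± 0.05) and Dlg4 (0.11 ± 0.05), with adjusted p from 0.725 to 0.760. Footprints had a median of -0.099 against -0.002. It was -0.169 without replicate 2, -0.051 without replicate 1 and -0.052 without WT DHPG replicate 1. Over all 25 alternatives the value nearest to 0 was -0.018. For footprints 2 members passed the unadjusted threshold beside 6.71% of genes, Dlgap3 (-0.25 ± 0.10) and Shank2 (-0.19 ± 0.08). Footprints per RNA had a median of -0.165 against 0.007, and 6 passed beside 9.14% of genes: Dlgap3 (-0.38 ± 0.10, adjusted p = 0.177), Shank1 (-0.355 ± 0.14), Shank2 (-0.30 ± 0.10), Shank3 (-0.25 ± 0.10), Dlgap4 (-0.18 ± 0.08) and Dlg4 (-0.15 ± 0.07). Thus all 3 Shank genes were among them and of the Dlg genes Dlg4 alone, while Dlg2 and Dlg3 were both at 0.01.

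In Tsc2+/- slices DHPG left most members near 0. Medians were 0.026 for RNA, -0.011 for RPFs and -0.010 for footprints per RNA. Unadjusted, 0 of 10 passed for RNA (4.32% of genes), and Dlgap3 alone passed for RPFs (-0.22 ± 0.10, 4.03% of genes) and for footprints per RNA (-0.25 ± 0.10, 3.65% of genes). With the genotypes averaged, Dlgap3 had the smallest p of any member for footprints per RNA (-0.31 ± 0.07, adjusted p = 0.137), and 3 members passed unadjusted, beside 8.51% of genes, as against 3 for RNA (7.49%) and 1 for RPFs (6.82%). With the treatments averaged, 2 passed for RNA (6.12% of genes), 2 for RPFs (6.63%) and 4 for footprints per RNA (4.48%), of which 3 were Dlgap genes.

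Whether DHPG acted differently in the genotypes was asked by the interaction. It had 0 of 10 at an unadjusted p under 0.05 for RNA (3.47% of genes), and Shank2 alone for RPFs (0.26 ± 0.11, 3.81% of genes) and for footprints per RNA (0.28 ± 0.13, 4.07% of genes), with adjusted p = 0.998 and 1. The medians of the members were -0.068, 0.043 and 0.131. A difference between the genotypes in the response of these genes was therefore not shown. Standard errors of the interaction were 0.064 to 0.120 for RNA and 0.0923 to 0.199 for footprints per RNA, so that differences of this size could not be resolved.

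**Figure D3:**
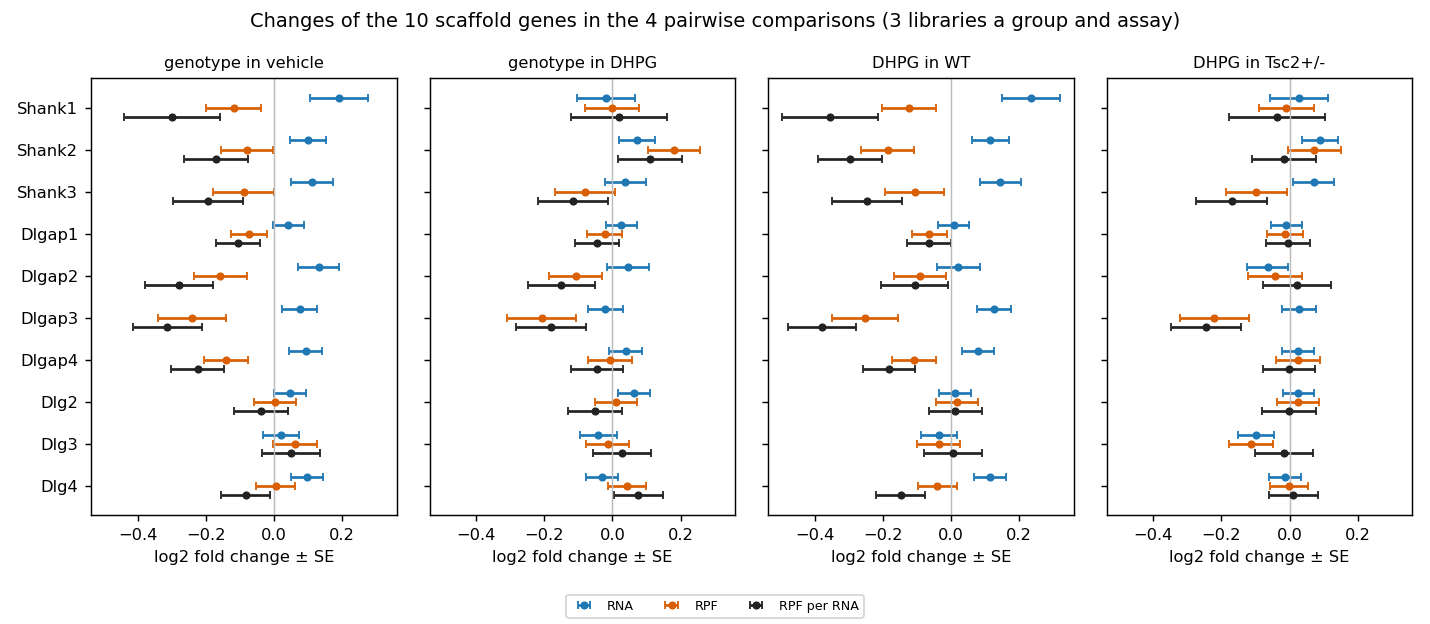
Log2 fold change ± SE of RNA, RPFs and RPFs per RNA for the 10 genes in the 4 pairwise comparisons (edgeR, 3 libraries per group and assay). In the 2 panels that use WT vehicle, RNA lies mostly above 0 and RPFs per RNA mostly below 0 (Dlgap3 at -0.31 and -0.38), while in the other 2 panels the medians of the members lie between -0.045 and 0.032, with single genes further out such as Dlgap3, Shank2, Shank3 and Dlgap2.

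The values by library show which samples carry these differences. Groups of 3 libraries can fail to overlap without a difference, and the share of all genes that did so is not given here. For DHPG in WT the groups did not overlap in 3 of the 10 members for footprints per RNA and in 1 for RNA. Without that share these counts are not a result about the members. Dlgap3, which links Dlg proteins to Shank proteins, had RPF levels of 75.2, 57.2 and 49.1 CPM in WT vehicle replicates 1, 2 and 3. It had 53.0, 51.8 and 47.6 CPM in WT DHPG, 52.9, 49.6 and 51.3 CPM in Tsc2+/- vehicle, and 49.8, 38.5 and 43.0 CPM in Tsc2+/- DHPG. WT vehicle replicate 1 was thus far above the others, while replicate 3 lay among the treated and mutant libraries. Dlgap3 RNA was 529, 561 and 490 CPM in WT vehicle, 592, 554 and 577 in WT DHPG, 595, 547 and 524 in Tsc2+/- vehicle and 572, 553 and 572 in Tsc2+/- DHPG. Its log2 footprints per RNA in WT vehicle (-2.26, -2.74 and -2.77) did not overlap those in WT DHPG (-2.93, -2.87 and -3.05) or in either Tsc2+/- group, where the highest was -2.81.

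Shank1, the largest of the scaffolds here with 2167 residues, had RPF levels of 220, 150 and 142 CPM in WT vehicle, against 162, 145 and 158 in WT DHPG. In Tsc2+/- it had 177, 148 and 144 CPM in vehicle and 165, 150 and 151 in DHPG. Again replicate 1 of WT vehicle was the highest of the 12 libraries, and the rest of the groups overlapped. Its RNA was 1528, 1569 and 1168 CPM in WT vehicle, 1782, 1537 and 1684 in WT DHPG, 1731, 1579 and 1543 in Tsc2+/- vehicle, and 1651, 1622 and 1660 in Tsc2+/- DHPG. Here it was replicate 3 of WT vehicle that stood apart, below all others.

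Shank3 RNA followed Shank1, with 398, 385 and 312 CPM in WT vehicle and 365 to 425 in the other 9 libraries. Its footprints were 76.0, 56.2 and 61.2 CPM in WT vehicle and 55.2 to 62.8 CPM in the other 9. The third library of WT vehicle was the lowest in RNA and the first the highest in footprints. Shank2 footprints were 134, 120 and 145 CPM in WT vehicle, 118, 106 and 126 in WT DHPG, 127, 134 and 115 in Tsc2+/- vehicle and 139, 127 and 130 in Tsc2+/- DHPG. The genotypes overlapped in vehicle but not in DHPG, where every Tsc2+/- library lay above every WT library by a small gap. Shank2 log2 footprints per RNA in WT vehicle (0.17, -0.02 and 0.40) lay above those in WT DHPG (-0.14, -0.18 and -0.06).

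Dlg4, which encodes PSD-95, had RNA of 1444, 1518 and 1537 CPM in WT vehicle, below all libraries of WT DHPG (1670, 1548 and 1656 CPM) and of the Tsc2+/- groups (1549 to 1696 CPM). The gap to the nearest library was small. Its footprints were 414, 382 and 453 CPM in WT vehicle and 396 to 432 CPM elsewhere, so that the WT vehicle libraries enclosed all others. Dlg2 had 329, 399 and 420 RPF CPM in WT vehicle and 377 to 399 CPM in the other 9 libraries, with replicate 1 the lowest. That is the opposite of Shank1, Shank3 and Dlgap3 in the same library.

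Among the other Dlgap genes, Dlgap2 footprints did not overlap between genotypes: they were 94.9, 87.6 and 98.1 CPM in WT vehicle against 84.8, 81.7 and 84.6 in Tsc2+/- vehicle. With DHPG they were 84.5, 94.8 and 83.9 CPM in WT against 81.9, 78.5 and 83.3 in Tsc2+/-. Unadjusted p for Dlgap2 was 0.0525 in vehicle and 0.174 in DHPG (edgeR). Of the 10 members, 1 did not overlap in RPFs between genotypes in vehicle and 2 did not in DHPG. Here too the share of all genes is not given, so these counts are not a result about the members. Dlgap1 and Dlgap4 varied between 384 and 437 and between 157 and 203 RPF CPM over the 12 libraries.

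The libraries in which the members stood apart were only partly the same in both assays. In the RNA library of WT vehicle replicate 3 all 10 members lay below the mean of the other libraries, with a median deviation of -0.113 (log2). They did so in WT DHPG replicate 2 as well, by less (-0.042). In the RNA library of Tsc2+/- vehicle replicate 1 all 10 lay above, with a median of 0.105, while replicates 2 and 3 of that group were at -0.015 and -0.012. Without Tsc2+/- vehicle replicate 1 the median RNA difference between genotypes in vehicle was 0.068. In the RPF libraries of WT vehicle replicates 1 and 3, 8 of 10 lay above the mean of the other libraries, with medians of 0.140 and 0.129. In RPFs of Tsc2+/- vehicle replicate 1, 9 of 10 lay above, by less (median 0.058). In RPFs of WT DHPG replicate 3 all 10 lay below (median -0.03). Across all genes, the RPF library of WT vehicle replicate 1 had a deviation that went with transcript GC at r = 0.540 over 10606 genes, the highest of the 12 RPF libraries (the others lay between -0.191 and 0.195). The RNA library of the same lysate was at r = -0.444, the lowest of the 12 RNA libraries (the others lay between -0.175 and 0.254), whereas RNA of replicate 3 was at 0.050. The RPF libraries of replicates 2 and 3 hold 97.9% to 98.5% even counts in all groups, against 48.2% to 49.0% in replicate 1. The counts of replicates 2 and 3 may therefore be doubled, which the sources used here do not state.

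**Figure D4:**
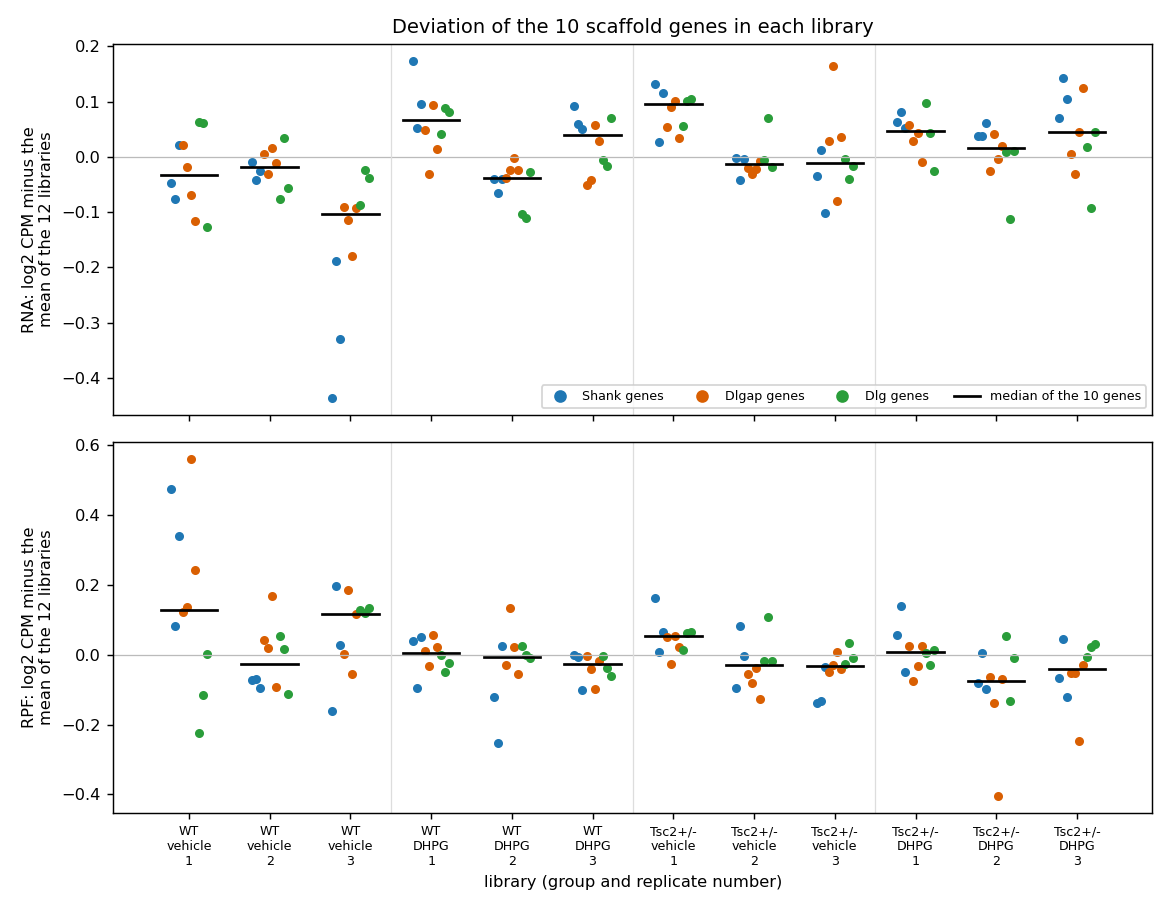
Log2 CPM of each of the 10 genes minus its mean over the 12 libraries of the assay, by library, coloured by family, with the median of the 10 genes as a bar. The RNA library of WT vehicle replicate 3 lies below 0 for all 10 genes, and in the RPF library of WT vehicle replicate 1 Dlgap3, Shank1 and Shank3 lie highest and Dlg2 lowest.

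Leaving out libraries of WT vehicle changed the size of the differences. Without the lysate of WT vehicle replicate 2, the one nearest to the other groups, edgeR called 5 members lower with DHPG in WT in footprints per RNA (Shank1, Shank2, Shank3, Dlgap3 and Dlgap4, adjusted p from 0.0267 to 0.0661), and the median went to -0.262. In the same setting 365 genes (2.83%) were called in all. Without replicate 1 of WT vehicle the median was -0.116 and without replicate 3 it was -0.117, with 0 called in both. Without the RPF library of replicate 1 and the RNA library of replicate 3, a choice made after seeing the data, the median was -0.075 for DHPG in WT and -0.115 for genotype in vehicle, and 0 members were called. For genotype in vehicle the median of footprints per RNA was -0.098 without WT vehicle replicate 3, and -0.309 without WT vehicle replicate 2, where 1 member (Dlgap4) was called beside 0.519% of genes.

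Removing from each library its trend with GC content and length brought the DHPG difference near 0. The trend was fitted to the values of each library, so a change between groups that went with GC or length would be removed too. Technical and biological trends cannot be told apart here. The median of the members for footprints per RNA with DHPG in WT went from -0.165 to -0.008, and 0 of 10 then passed an unadjusted p under 0.05. Dlgap3 went from -0.38 to -0.15, Shank1 from -0.355 to -0.10 and Shank3 from -0.25 to 0.01. For genotype in vehicle the median went from -0.181 to -0.065. RNA with DHPG in WT went from a median of 0.097 to 0.018, and 1 of 10 then passed unadjusted beside 4.56% of genes. For genotype in vehicle the RNA median was 0.088 after removal against 0.095 before, and 7 of 10 then passed an unadjusted p under 0.05 beside 6.43% of genes, with 0 called. The change of footprints per RNA with DHPG in WT went with transcript GC among the members (r = -0.865, rho = -0.915, n = 10 genes) and over 10062 genes (r = -0.363, rho = -0.376). For genotype in vehicle, which has the WT vehicle libraries in common, the members had r = -0.741 and all genes -0.263. These are descriptions over genes measured in the same libraries.

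**Figure D5:**
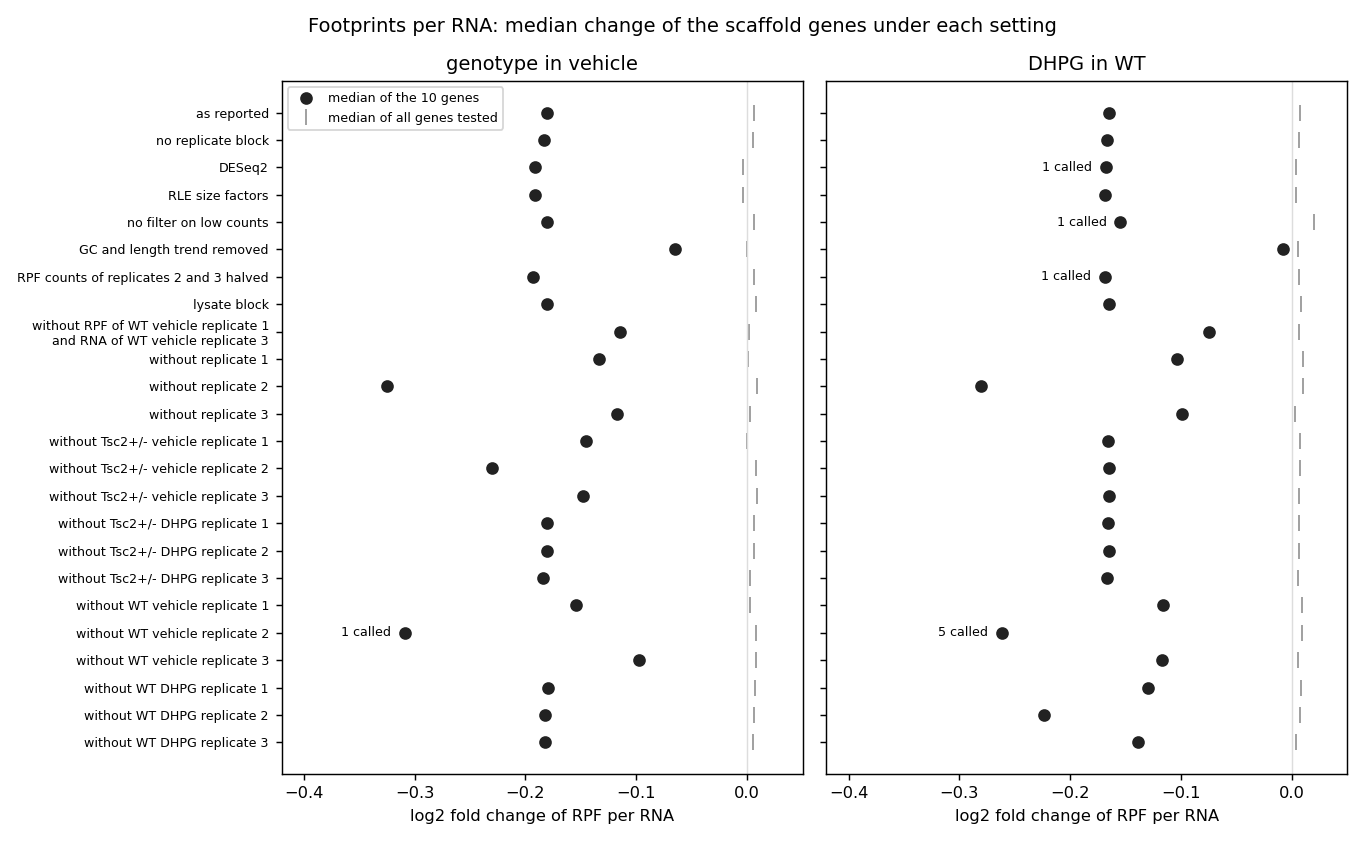
Median log2 fold change of footprints per RNA over the 10 genes (points) and over all genes tested (ticks) under each setting, for genotype in vehicle and DHPG in WT. Numbers beside points give how many of the 10 were called. The medians lie below 0 in all settings, nearest to 0 with the GC and length trend removed and furthest without replicate 2 or WT vehicle replicate 2.

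Other genes of the postsynaptic density were compared from a list of 49 partners, of which 48 were tested: relatives outside the 10, proteins that bind Shank, Dlg or Dlgap, other PDZ scaffolds and inhibitory synapse scaffolds. For DHPG in WT, 1 of 48 was called in footprints per RNA. This was Dynll2, a dynein light chain that binds Dlgap proteins, which rose by 0.48 ± 0.10 (adjusted p = 0.078, edgeR) and, with the genotypes averaged, by 0.35 ± 0.07 (adjusted p = 0.0462). Dynll2 footprints were 186, 273 and 246 CPM in WT vehicle and 304, 310 and 306 CPM in WT DHPG. Over 24 alternatives the DHPG difference in WT ran from 0.31 to 0.63 with adjusted p from 0.000637 to 0.946, and it was called in 11 of them. With no replicate block Dynll2 was not called in either comparison (adjusted p = 0.344 and 0.228). Its relative Dynll1 was at 0.30 ± 0.10 (adjusted p = 0.335). Without the 2 WT vehicle libraries named above Dynll2 was at 0.31 and not called (adjusted p = 0.649). The median of the 48 was -0.051, with 19 above 0 and 29 below.

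Among proteins that bind Dlg, footprints per RNA with DHPG in WT were -0.23 ± 0.08 for Nlgn3 (neuroligin 3, an adhesion molecule), -0.24 ± 0.08 for Agap2 and -0.26 ± 0.09 for Iqsec2 (adjusted p = 0.353 for each, edgeR). In RNA 0 of 48 partners were called for DHPG in WT, and 9 passed an unadjusted p under 0.05 (6.45% of all genes), among them Agap2 (0.14 ± 0.05). In RPFs 0 of 48 were called, and 5 passed unadjusted (6.71% of all genes). For genotype in vehicle 0 of 48 were called in the 3 measures. Unadjusted, 5, 4 and 4 passed in RNA, RPFs and footprints per RNA, beside 4.90%, 6.55% and 5.67% of all genes.

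The glutamate receptors that these scaffolds hold were closer to 0. Of 10 tested subunits of AMPA and NMDA receptors, 0 were called for DHPG in WT in footprints per RNA, and their median was -0.063. The unadjusted threshold, which 9.14% of all genes passed, was passed by 1 of them, Gria2 (0.17 ± 0.08). Active zone scaffolds, which organise the presynaptic side, had a median of -0.105 with 0 of 10 called and 2 past that threshold, among them Bsn (bassoon, -0.31 ± 0.09, adjusted p = 0.225). The difference between these lists and the 10 scaffold genes was not tested.

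Most pairs of members had a positive correlation across libraries, more so in RNA than in RPFs. With the mean of each replicate number taken out, 38 of 45 pairs had a positive r over the 12 RNA libraries (median 0.529, from -0.262 to 0.943), and Shank1 with Shank3 had 0.943. Dlg3 was the exception in RNA, with r from -0.262 to 0.033 with the other members. In RPFs 30 of 45 pairs were positive (median 0.248, from -0.812 for Shank1 with Dlg2 to 0.816). Values for pairs of other genes are not given here. The genes outside the 10 whose RNA was most like the mean of the members were Srrm2 (r = 0.973), Cyfip2 (0.971), Ttbk1 (0.967), Ap3d1 (0.960) and Abca2 (0.957). In RPFs they included Kif21b (0.948), Ppfia4 (0.924), Nfe2l1 (0.923) and Soga1 (0.919). For Shank3 the closest in RNA was A930012L18Rik (0.961), and for Dlg4 it was Hgs (0.974). These values over 12 libraries were picked from all genes, and the points share depth and composition.

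Antisense or neighbouring genes overlap exons of several members. Shank3 shares 271 bases with Gm15609, Dlgap4 204 with 4930405A21Rik, Shank2 131 with Gm14372, and Dlgap1 92 with Gm41609, each on the other strand. Where the counting did not use strand, reads of these stretches cannot be told apart.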

How the data were processed

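RNA and RPF libraries of 12 lysates were grouped by assay, genotype and treatment from the labels, 3 per group. The authors trimmed adapters (Cutadapt, Trimmomatic), removed rRNA and tRNA reads (bowtie2), aligned to mm10 with TopHat2, kept unique reads, removed duplicates by molecular identifiers and counted with RSEM, over whole transcripts for RNA and over coding sequences without 30 bases at each end for RPFs. What the authors deposited are RSEM expected counts by gene, rounded to whole numbers and not normalised. The study then used ComBat and DESeq2, and anota2seq for footprints per RNA. For DHPG in WT it also had libraries of further batches, from slices with CA3, which are not used here. ComBat with DESeq2 is run here as an alternative on the present libraries alone, with the replicate number as batch. It is therefore not a rerun of the study's test of DHPG in WT.

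Genes were filtered with filterByExpr (minimum count 10), scaled by TMM and tested with edgeR 4.0.16 (robust quasi-likelihood F test, two-sided) in R 4.3.3 over all 12 libraries of an assay, with the replicate number as a block in place of the batch the study corrected for. Footprints per RNA were tested in 1 model of all 24 libraries, by how group effects differed between assays. This model did not use the pairing of the RNA and RPF library of a lysate. A block for the lysate was run as an alternative. Benjamini-Hochberg adjustment ran over every gene tested, with calls under 0.1. SE is the absolute log2 fold change divided by the square root of F. CPM are TMM-scaled. Since labels do not tie libraries to animals, p-values measure the spread between pooled lysates.

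Alternatives used DESeq2 1.42.0, sva 3.50.0 (ComBat), other scaling and filters, a GC and length trend (available for 99.4% and 99.8% of genes tested in RNA and RPFs), halved RPF counts and left-out libraries. GRCm38.p6 (mm10) as annotated by RefSeq gave lengths, GC and sequences. Scripts were tested on simulated data. The 10 genes, the partner lists and the markers were chosen with earlier results of these data known. All 10 genes were named, and from each list the called genes or up to 3 with the smallest p, with likeness ranked by Pearson r, and some genes that this rule names are not reported here. All value columns had a sample.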

Additional observations from a re-analysis of the deposited data

How the results depend on the processing

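All 21 counts of members called (0 each) were recomputed under up to 27 settings, 505 values in all, of which 18 were above 0. ComBat given the group labels, followed by DESeq2, called 2 members in RNA for genotype in vehicle (beside 0.875% of all genes), 5 for DHPG in WT (2.41%) and 3 for DHPG averaged over genotypes (2.87%), and 1 in RPFs for DHPG averaged over genotypes (0.738%), whereas ComBat without the labels called 0. For footprints per RNA, 1 member (Dlgap3) was called by DESeq2 and without the filter on low counts, both for DHPG in WT and for DHPG averaged over genotypes, and with halved RPF counts 1 was called for DHPG in WT. Shares of all genes without that filter and with halved counts are not given here. Leaving out 1 library, lysate or replicate number gave 0 to 1 members in RNA for genotype in vehicle, 0 to 2 for DHPG in WT and 0 to 1 for DHPG averaged over genotypes. For footprints per RNA it gave 0 to 1 for genotype in vehicle, 0 to 5 for DHPG in WT and 0 to 2 for DHPG averaged over genotypes. The highest of each came without WT vehicle replicate 2. There more genes of any kind were also called for DHPG in WT (RNA and footprints per RNA) and for genotype in vehicle (footprints per RNA). For genotype in vehicle in RNA and for DHPG averaged over genotypes, the shares of all genes in these settings are not given here. The counts of members are therefore not a result about these genes alone. Why was not tested.

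Of 5050 member fold changes under these settings, 307 had the other sign, and 31 were called, none of them with the other sign. The number of all genes called for DHPG in WT in footprints per RNA was 6 (0.0469%), against 0.79% by DESeq2, 0 with the GC and length trend removed, 1 with no replicate block, 57 without replicate 2 and 365 without WT vehicle replicate 2. For RNA it was 0, against 112 without WT vehicle replicate 2.

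The replicate block changed no call of a member: with no replicate block 0 were called in every comparison. The call of Dynll2 was lost without it. Libraries with the same number deviated together weakly (r from 0.0228 to 0.143 for RNA and from 0.0330 to 0.263 for RPFs), against -0.126 to 0.0240 and -0.194 to 0.0667 between numbers. These weak correlations alone do not settle whether numbers pair the samples. The share of even RPF counts did go with the number, since replicate 1 differed from replicates 2 and 3 in all groups. With 3 libraries per group, SE for DHPG in WT were 0.0453 to 0.085 for RNA and 0.0652 to 0.141 for footprints per RNA. Dlgap3 had 206 to 456 RPF counts in the libraries of replicates 2 and 3, where counts may be doubled, and 404 to 728 in replicate 1.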
